A study of Mus musculus with 16 samples.

Results

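The RGS genes encode regulators of G-protein signalling, and 9 of them were followed here: Rgs2, Rgs3, Rgs10, Rgs12, Rgs14, Rgs16, Rgs17, Rgs19 and Rgs20. They were taken by gene symbol from a table of 27179 entries of normalized read counts. All 9 were found, and 8 of them had a normalized count of at least 10 in at least 4 libraries and were tested. Rgs14 did not pass this filter. A normalized count is the number of reads on a gene divided by a size factor of the library, so it can be compared between libraries for a single gene.

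A receptor bound by its agonist loads the alpha subunit of a heterotrimeric G protein with GTP, and the signal lasts until that GTP is hydrolysed. RGS proteins speed up the hydrolysis on alpha subunits of the Gi, Go, Gz and Gq classes and so shorten signals from the receptors that use them. In white fat, beta-adrenergic receptors act through the stimulatory subunit Gs and cyclic AMP, while receptors coupled to Gi oppose them. By sequence, Rgs2, Rgs3 and Rgs16 belong to the R4 subfamily, Rgs10, Rgs12 and Rgs14 to the R12 subfamily, and Rgs17, Rgs19 and Rgs20 to the RZ subfamily.

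The cells were adipose progenitors (APCs), obtained from inguinal white fat of C57BL/6 mice by sorting for the receptor PDGFRb and then kept in culture. The 16 libraries fell into 4 groups of 4: DPP4_pos APCs given isoproterenol, DPP4_pos APCs given the vehicle PBS, DPP4_neg APCs given isoproterenol, and DPP4_neg APCs given PBS. Isoproterenol, which activates beta-adrenergic receptors, was applied for 4 h at a dose that the labels give as 10 mM. That is far above what is usual for cultured cells, and whether the unit in the labels is right could not be settled from the files. All groups grew in medium with 10% serum, and the labels name no mutation and give neither the sex nor the age of the animals. The labels do not say whether the 4 libraries of a group came from separate cultures or animals. The p-values set differences of groups only against the spread among these libraries. That spread may be technical, so the p-values may not hold for other cultures or animals.

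Libraries held 9823799 to 28627223 reads in genes, and the DPP4_pos isoproterenol libraries, with 9823799 to 16563940, were shallower than the DPP4_pos vehicle libraries, with 17189166 to 20425332. Dpp4 stood at 2223 ± 97.7 normalized counts in DPP4_pos isoproterenol and 3053 ± 186 in DPP4_pos vehicle libraries, against 9.89 ± 2.29 in DPP4_neg isoproterenol and 21.1 ± 4.16 in DPP4_neg vehicle libraries (mean ± SD, n = 4), so it followed the sort. Pdgfrb, the gene of the sorted receptor, had 2105 ± 163 normalized counts in DPP4_pos isoproterenol and 7562 ± 367 in DPP4_pos vehicle libraries, and 9028 ± 396 in DPP4_neg isoproterenol and 11315 ± 149 in DPP4_neg vehicle libraries. Pdgfra, a gene of fibroblast-like progenitors, had 10639 ± 438 in DPP4_pos isoproterenol and 33546 ± 239 in DPP4_pos vehicle libraries, and 10597 ± 599.98 in DPP4_neg isoproterenol and 13351 ± 241 in DPP4_neg vehicle libraries. Both fell under isoproterenol in both populations, and more in DPP4_pos APCs, by a log2 difference of responses of -1.52 for Pdgfrb (limma, adjusted p = 2.4e-14) and -1.32 for Pdgfra (adjusted p = 1.37e-14). In bulk RNA, fewer cells of a type and less RNA per cell cannot be told apart.

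The promoter windows of Rgs2, which was higher under isoproterenol in both populations, and of Rgs16, which was lower in both, are shown because both genes lie on chromosome 1, have a single RefSeq transcript and moved in opposite directions. Each window holds the 250 bases before the annotated start (RefSeq, GRCm38.p6), written 5′ to 3′ on the strand of the gene, with capitals for TGACG or its reverse complement, the half-site of the cyclic AMP response element (CRE) that CREB-family factors bind.
Rgs2 (chr1:144004150-144004399, minus strand): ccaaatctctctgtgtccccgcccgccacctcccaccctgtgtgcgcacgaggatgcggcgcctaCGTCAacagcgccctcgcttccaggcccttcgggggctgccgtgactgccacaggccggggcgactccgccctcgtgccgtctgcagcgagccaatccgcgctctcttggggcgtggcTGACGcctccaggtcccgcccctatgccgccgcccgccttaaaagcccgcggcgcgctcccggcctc
Rgs16 (chr1:153740103-153740352, plus strand): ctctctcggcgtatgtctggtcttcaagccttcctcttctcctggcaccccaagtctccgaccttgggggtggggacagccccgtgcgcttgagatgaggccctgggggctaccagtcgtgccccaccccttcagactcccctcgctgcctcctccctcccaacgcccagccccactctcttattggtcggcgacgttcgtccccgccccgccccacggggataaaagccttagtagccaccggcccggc
TGACG was searched on both strands. The Rgs2 window held it at 2 places, 185 to 181 bases before the start on the opposite strand and 67 to 63 bases before the start on the strand of the gene, while the Rgs16 window held none. Among the 11 windows found for 7 members, the only other match lay in a window of Rgs12, 82 to 78 bases before the start. Rgs12 fell in both populations, and the windows of Rgs10, Rgs17 and Rgs19, which rose in DPP4_pos APCs, held no match. The full palindrome TGACGTCA was in 0 of the 11 windows. Of the 13760 windows of tested genes, 25.8% held TGACG and 2.57% held TGACGTCA. A match is a description of these letters, not a binding site.

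Isoproterenol moved RGS transcripts in both directions. In DPP4_pos APCs, Rgs2, Rgs10, Rgs17 and Rgs19 rose and Rgs3, Rgs12 and Rgs16 fell, 7 of the 8 tested members in all. In DPP4_neg APCs, Rgs2, Rgs10 and Rgs17 rose and Rgs3, Rgs12 and Rgs16 fell, 6 of 8. These counts are read against a broad response: 82.7% of the 14005 tested genes passed the same threshold in DPP4_pos APCs and 65.7% in DPP4_neg APCs (limma, adjusted p under 0.05). By direction, 39.4% of genes rose and 43.3% fell in DPP4_pos APCs, and 32.1% rose and 33.6% fell in DPP4_neg APCs. The treated and vehicle libraries did not overlap for 7 of the 8 members in DPP4_pos APCs, beside 77.8% of all genes, and for 6 of 8 in DPP4_neg APCs, beside 58.9%. Of the members that passed, 4 changed at least 2-fold in each population, where 30.7% of all genes did so in DPP4_pos and 15.3% in DPP4_neg APCs. The median absolute log2 difference of the 8 members was 1.15 in DPP4_pos and 1.04 in DPP4_neg APCs, beside 0.61 and 0.32 over all tested genes. Log2 differences are of log2(normalized count + 1), which understates the change of genes with few reads.

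**Figure D1:**
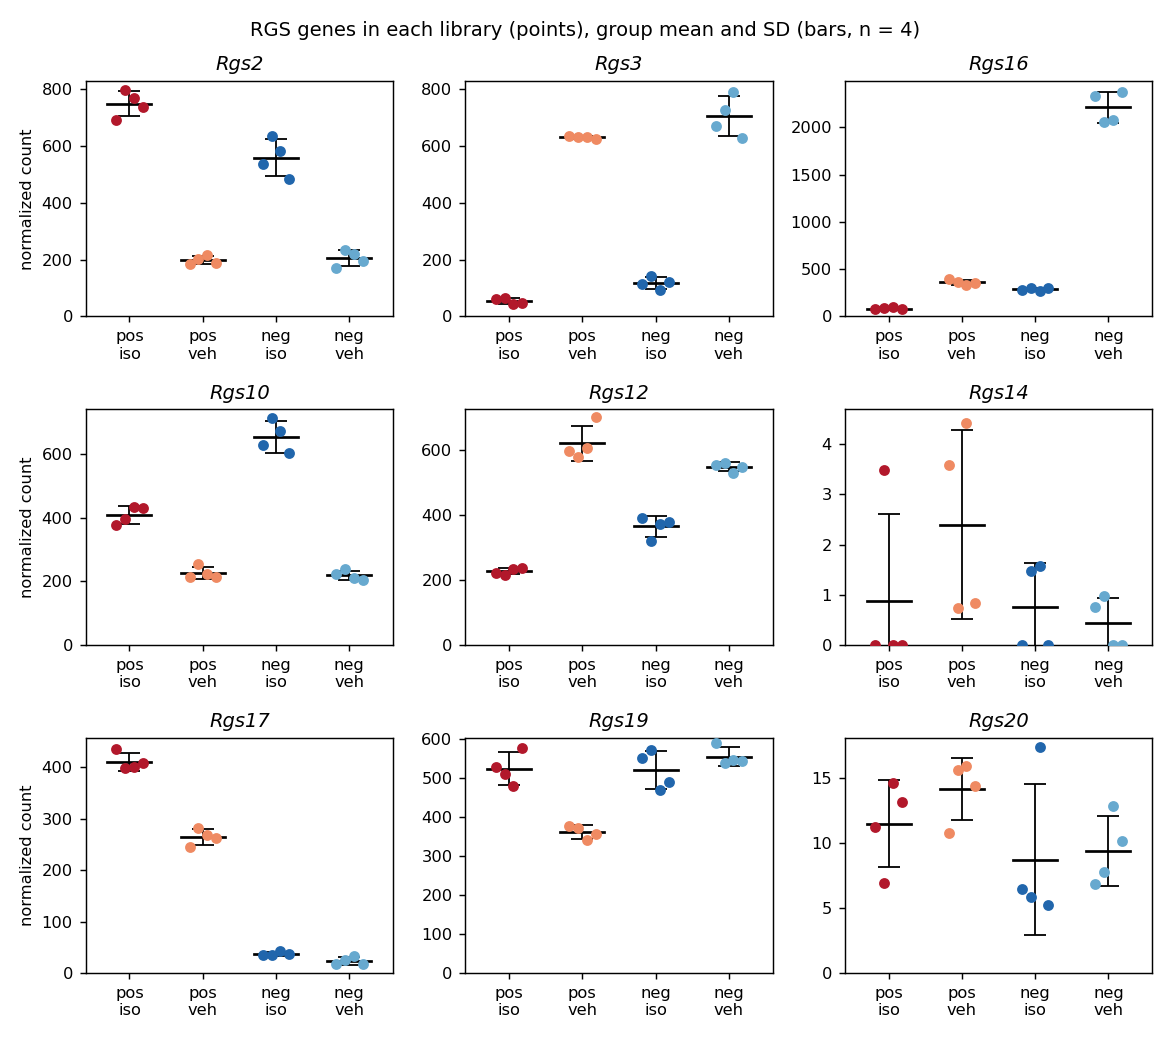
Normalized counts of the 9 RGS genes (vertical axes, each from 0) in each of the 16 libraries (points), with group mean and SD (bars, n = 4), for DPP4_pos isoproterenol, DPP4_pos vehicle, DPP4_neg isoproterenol and DPP4_neg vehicle from left to right. Rgs16 averaged 2209.8 normalized counts in DPP4_neg vehicle libraries and at most 359 in the other 3 groups, and Rgs17 was high only in the DPP4_pos groups, with 411 under isoproterenol and 265 under vehicle, against 37.5 under isoproterenol and 24.6 under vehicle in DPP4_neg APCs.

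Rgs2 (chromosome 1, 143999338 to 144004149, minus strand, GRCm38.p6 as for all positions) encodes an R4 protein that acts mainly on Gq. In DPP4_pos APCs it had 692, 796, 769 and 735 normalized counts under isoproterenol, against 184, 201, 215 and 188 under vehicle. In DPP4_neg APCs it had 534, 633, 582 and 484 under isoproterenol, against 171, 235, 219 and 195 under vehicle. Every isoproterenol library lay above every vehicle library of its population, and the vehicle libraries of both populations overlapped. Rgs2 rose by a log2 difference of 1.92 ± 0.09 in DPP4_pos APCs (limma ± SE, adjusted p = 1.17e-14) and 1.45 ± 0.09 in DPP4_neg APCs (adjusted p = 4.34e-12). The first of these was larger in size than 89.6% of all tested genes and the second larger than 91.2%. The rise was larger in DPP4_pos APCs by 0.47 ± 0.13 (adjusted p = 0.00278). With libraries scaled to their total reads instead, that difference was 0.21 with an adjusted p of 0.144.

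Rgs3 (chromosome 4, 62559835 to 62703019, plus strand), an R4 gene with 16 RefSeq transcripts whose protein acts on Gi and Gq, was the member with the largest fall in DPP4_pos APCs. There it had 62.9, 64.5, 42.4 and 48.9 normalized counts under isoproterenol, against 635, 630.2, 632 and 623 under vehicle. DPP4_neg APCs had 114, 144, 93.1 and 121 under isoproterenol, against 669, 728, 791 and 629.9 under vehicle. Treated and vehicle libraries were far apart in both populations, and the DPP4_pos vehicle libraries lay close together, with an SD of 4.78. Rgs3 fell by 3.52 ± 0.12 on the log2 scale in DPP4_pos APCs (11.5-fold, adjusted p = 6.06e-17) and fell by 2.58 ± 0.12 in DPP4_neg APCs (5.98-fold, adjusted p = 3.88e-14). The difference between the responses was -0.94 ± 0.17 (adjusted p = 7.22e-05), a deeper fall in DPP4_pos APCs. The table gives 1 value per gene, so which Rgs3 transcript changed was not analysed here.

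Rgs16 (chromosome 1, 153740353 to 153745468, plus strand), an R4 gene whose protein acts on Gi and Gq, fell in both populations from unequal vehicle levels. In DPP4_pos APCs it had 74.2, 87.1, 99.4 and 75.2 normalized counts under isoproterenol, against 393, 366, 328 and 351 under vehicle. In DPP4_neg APCs it had 280.2, 298, 269.7 and 305 under isoproterenol, against 2329.5, 2059, 2079 and 2372 under vehicle. The DPP4_neg isoproterenol libraries all lay below the lowest DPP4_pos vehicle library. Rgs16 fell by 2.09 ± 0.08 on the log2 scale in DPP4_pos APCs (4.26-fold, adjusted p = 5.78e-16) and fell by 2.93 ± 0.08 in DPP4_neg APCs (7.64-fold, adjusted p = 3.58e-18). The difference between the responses was 0.84 ± 0.12 (adjusted p = 2.2e-06), a deeper fall in DPP4_neg APCs. An antisense gene, Gm28513, shares 236 exonic bases with Rgs16, which has 2.339 kb of exons. The strand setting of the counting is not given in the sources used here, so reads in the shared bases cannot be told apart.

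The summed level of 10 mural markers, genes of pericytes and smooth muscle, was lower in DPP4_pos than in DPP4_neg APCs under each treatment and lower under isoproterenol than under vehicle in each population, as Rgs16 was. It came to 5551 ± 487 normalized counts in DPP4_pos isoproterenol and 8490 ± 509 in DPP4_pos vehicle libraries, and to 77775 ± 2858 in DPP4_neg isoproterenol and 113761 ± 5031 in DPP4_neg vehicle libraries. No mural marker was at 0 throughout a group, and Acta2, the smooth muscle actin that activated fibroblasts also make, held most of the sum. Unlike Rgs16, the sum in DPP4_neg isoproterenol libraries lay far above that in DPP4_pos vehicle libraries. Under isoproterenol, 3 of the 10 markers rose and 7 fell in DPP4_pos APCs, where 39.4% and 43.3% of all tested genes did. In DPP4_neg APCs 1 rose, 7 fell and 2 were not called, where 32.1% of all genes rose and 33.6% fell. Kcnj8 had 136 to 167 normalized counts under isoproterenol in DPP4_pos APCs, against 9.86 to 22.1 under vehicle. Between DPP4_pos and DPP4_neg APCs, 3 markers were higher and 7 lower under isoproterenol, where 37.4% and 37% of all genes were. Under vehicle 1 was higher, 6 lower and 3 not called, where 31.6% were higher and 35% lower. The pericyte gene Notch3 was higher in DPP4_pos APCs under both treatments, with 386 ± 30.0 normalized counts in DPP4_pos and 303 ± 19.4 in DPP4_neg APCs under isoproterenol, and 1053 ± 40.7 in DPP4_pos and 798 ± 58.1 in DPP4_neg APCs under vehicle. The sum of 7 adipocyte markers, of which 6 were tested, differed in the same directions as Rgs16. It was 4350 ± 315 normalized counts in DPP4_pos isoproterenol and 12270 ± 797 in DPP4_pos vehicle libraries. In DPP4_neg libraries it was 13214 ± 1276 under isoproterenol and 32048 ± 2006 under vehicle. All 6 tested fell under isoproterenol in both populations. Under each treatment 5 were lower in DPP4_pos APCs and 1 was not called. The part of mural cells or adipocytes in the Rgs16 level was not tested.

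Of the R12 genes, Rgs10 (chromosome 7, 128373621 to 128419506, minus strand) rose in both populations. Its protein is little more than an RGS domain, acts on Gi and is known from microglia and macrophages. DPP4_pos APCs had 376, 395, 434 and 432 normalized counts under isoproterenol, against 214, 253, 223 and 214 under vehicle. DPP4_neg APCs had 629, 715, 672 and 602 under isoproterenol, against 223, 238, 211 and 203 under vehicle. The vehicle levels of the populations overlapped, and the treated libraries of DPP4_neg APCs all lay above those of DPP4_pos APCs. The log2 difference was 0.85 ± 0.07 in DPP4_pos APCs (adjusted p = 4.03e-10) and 1.58 ± 0.07 in DPP4_neg APCs (adjusted p = 2.12e-14). The difference between the responses was -0.72 ± 0.10 (adjusted p = 3e-06), a smaller rise in DPP4_pos APCs.

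Since Rgs10 is also a gene of macrophages, their markers are given beside it. The 15 macrophage and leukocyte markers in the table summed to 1022 ± 325 normalized counts in DPP4_pos isoproterenol and 749.8 ± 233 in DPP4_pos vehicle libraries, and to 1425 ± 534 in DPP4_neg isoproterenol and 666 ± 263 in DPP4_neg vehicle libraries. Of the 12 tested markers, 2 rose and 10 were not called in DPP4_pos APCs, and 4 rose and 8 were not called in DPP4_neg APCs. Of all tested genes, 82.7% were called and 39.4% rose in DPP4_pos APCs, and 65.7% were called and 32.1% rose in DPP4_neg APCs. Csf1r, the receptor for macrophage colony-stimulating factor, made up much of the change of the sum in DPP4_neg APCs, with 693 ± 101 normalized counts under isoproterenol, against 175 ± 21.1 under vehicle. In DPP4_pos APCs Csf1r had 251 ± 27.3 under isoproterenol, against 148 ± 23.2 under vehicle. Ptprc, the marker of all leukocytes, averaged 13.6 ± 13.0 in DPP4_pos isoproterenol and 13.7 ± 6.03 in DPP4_pos vehicle libraries, and 8.65 ± 8.41 in DPP4_neg isoproterenol and 7.16 ± 1.48 in DPP4_neg vehicle libraries. The part of macrophages in the Rgs10 level was not tested.

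Rgs12 (chromosome 5, 34948929 to 35039642, plus strand), whose protein adds PDZ, Ras-binding and GoLoco domains to the RGS domain, fell in both populations. DPP4_pos APCs had 220.2, 216, 234 and 237 normalized counts under isoproterenol, against 597, 579, 607 and 699.5 under vehicle. DPP4_neg APCs had 389, 319, 372 and 378 under isoproterenol, against 554, 559.8, 528 and 548 under vehicle. No treated library reached a vehicle library of its population. Rgs12 fell by 1.45 ± 0.07 on the log2 scale in DPP4_pos APCs (2.72-fold, adjusted p = 8e-15) and fell by 0.59 ± 0.07 in DPP4_neg APCs (1.51-fold, adjusted p = 7.92e-08). The difference between the responses was -0.86 ± 0.09 (adjusted p = 7.64e-08). The antisense gene Gm43791 shares 467 exonic bases with Rgs12, which has 8.487 kb of exons, and reads in the shared bases cannot be told apart.

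Rgs14 (chromosome 13, 55369732 to 55384687, plus strand), the R12 gene best known from hippocampal neurons, was close to undetected. It gave 2 reads in all DPP4_pos isoproterenol libraries together and 11 in DPP4_pos vehicle libraries, 3 in DPP4_neg isoproterenol and 2 in DPP4_neg vehicle libraries, 18 in all. No fold change or test is given for it.

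Among the RZ genes, Rgs17 (chromosome 10, 5825663 to 5922412, minus strand) separated the populations more than the treatments. RZ proteins carry a string of cysteines and act on Gz as well as Gi. In DPP4_pos APCs Rgs17 had 436, 399, 400.4 and 408 normalized counts under isoproterenol, against 245, 282, 269 and 263 under vehicle. In DPP4_neg APCs it had 34.8, 36.0, 42.6 and 36.8 under isoproterenol, against 19.1, 26.3, 34.7 and 18.3 under vehicle. The highest DPP4_neg vehicle library stood just under the lowest treated library of that population. Rgs17 rose by 0.63 ± 0.14 in DPP4_pos APCs (limma, adjusted p = 0.000392) and by 0.63 ± 0.14 in DPP4_neg APCs (adjusted p = 0.000587). The difference between these responses had a 95% confidence interval of -0.42 to 0.42 on the log2 scale (adjusted p = 0.999). With libraries scaled to their total reads, the rise in DPP4_pos APCs was 0.36 (adjusted p = 0.0259).

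Rgs19 (chromosome 2, 181688419 to 181694537, minus strand), also called GAIP, binds Gi subunits and rose in DPP4_pos APCs. There it had 530.3, 512, 479 and 579 normalized counts under isoproterenol, against 379, 372, 341 and 358 under vehicle. In DPP4_neg APCs it had 552, 573, 470.1 and 489.6 under isoproterenol, against 591, 539, 547 and 545 under vehicle. The groups stood apart in DPP4_pos APCs and overlapped in DPP4_neg APCs. The log2 difference was 0.53 ± 0.07 in DPP4_pos APCs (adjusted p = 1.9e-07), and in DPP4_neg APCs it was -0.10 with a 95% confidence interval of -0.23 to 0.04 (adjusted p = 0.209). The responses differed by 0.63 ± 0.09 (adjusted p = 5.63e-06). With libraries scaled to their total reads, the rise in DPP4_pos APCs was 0.26 (adjusted p = 0.00112) and the difference of the responses 0.37 (adjusted p = 0.00158).

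Rgs20 (chromosome 1, 4909573 to 5070299, minus strand), which encodes a regulator selective for Gz, was near the filter, with 5.25 to 17.4 normalized counts per library and 185 reads in all. Its mean was 11.5 ± 3.32 in DPP4_pos isoproterenol and 14.2 ± 2.37 in DPP4_pos vehicle libraries, and 8.74 ± 5.76 in DPP4_neg isoproterenol and 9.42 ± 2.69 in DPP4_neg vehicle libraries. The groups overlapped in both populations. The 95% confidence interval of the log2 difference ran from -1.003 to 0.38 in DPP4_pos APCs (limma, adjusted p = 0.395) and from -0.91 to 0.48 in DPP4_neg APCs (adjusted p = 0.588). Rgs20, which has 4.239 kb of exons, shares 127 exonic bases with Atp6v1h on the opposite strand, a gene of the proton pump. Atp6v1h had 2602 ± 168 normalized counts in DPP4_pos isoproterenol and 1329 ± 18.4 in DPP4_pos vehicle libraries. Reads in the shared bases cannot be told apart.

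**Figure D2:**
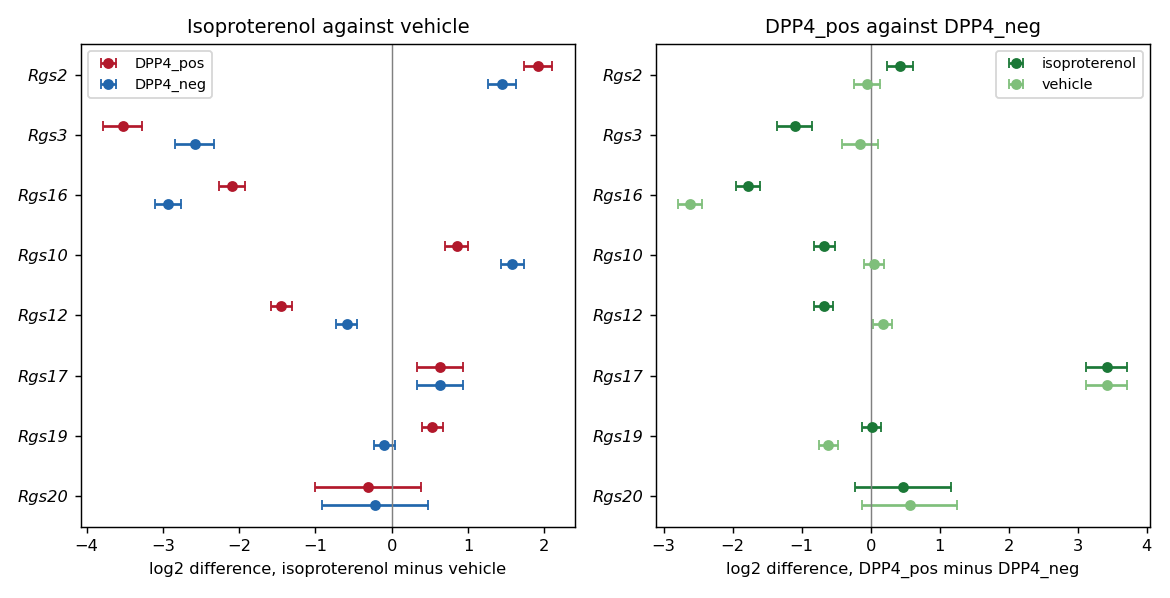
Log2 differences of the 8 tested RGS genes with 95% confidence intervals (limma, 4 libraries per group). The left panel gives isoproterenol minus vehicle in each population and the right panel DPP4_pos minus DPP4_neg under each treatment, and Rgs3 at -3.52 and -2.58 and Rgs16 at -2.09 and -2.93 lie farthest to the left in the first panel.

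Of the 8 tested members, 6 differed between the populations in their response to isoproterenol: the log2 difference was higher in DPP4_pos than in DPP4_neg APCs for Rgs2, Rgs16 and Rgs19 and lower for Rgs3, Rgs10 and Rgs12. The same threshold was passed by 62.6% of all tested genes, 31.6% higher and 31% lower. None of the 8 differed in response by 2-fold or more in the fit used here, where 15.6% of all genes did. Among the alternative runs, the log2 difference of responses reached -1.20 for Rgs3, -1.12 for Rgs12 and 1.20 for Rgs16, each past 2-fold. Scaling to total reads moved the median of all tested genes by -0.27 in the response of DPP4_pos APCs and by -0.26 in the difference of responses. Under that scaling 33.0% of the genes called in DPP4_pos APCs were higher under isoproterenol, against 47.6% here, and 27.2% of the genes called for the difference were higher in DPP4_pos APCs, against 50.5% here.

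Under vehicle, the populations differed in 4 of the 8 members, where 66.6% of all tested genes passed the threshold, 31.6% higher and 35% lower in DPP4_pos APCs. The libraries of the populations did not overlap for these 4 members, as for 67.3% of all genes, and 2 of the 4 differed at least 2-fold, as did 15.8%. Rgs17 was 10.7-fold higher in DPP4_pos than in DPP4_neg APCs, a log2 difference of 3.42 ± 0.14 (limma, adjusted p = 4.13e-15). Rgs16 and Rgs19 were lower in DPP4_pos APCs, with log2 differences of -2.62 ± 0.08 (6.14-fold, adjusted p = 2.61e-17) for Rgs16 and -0.62 ± 0.07 (1.53-fold, adjusted p = 3.86e-08) for Rgs19. Rgs12 was higher by 0.18 ± 0.07 (adjusted p = 0.0237); that call was lost without DPP4_pos vehicle replicate 4, the highest library (0.12, adjusted p = 0.126), and without DPP4_neg vehicle replicate 3, the lowest (0.16, adjusted p = 0.0653). For Rgs2, Rgs3 and Rgs10 the intervals of the difference ran from -0.24 to 0.14, from -0.41 to 0.10 and from -0.10 to 0.20 on the log2 scale, and for Rgs20 from -0.13 to 1.26. With only these 2 groups in the fit, Rgs3 (adjusted p = 0.0281) and Rgs20 (adjusted p = 0.0418) passed as well.

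Under isoproterenol, the populations differed in 6 members, where 74.4% of all tested genes passed, 37.4% higher and 37% lower in DPP4_pos APCs. The libraries of the populations did not overlap for these 6, as for 63.9% of all genes, and 3 of them differed at least 2-fold, as did 18.7%. Rgs17 was higher in DPP4_pos than in DPP4_neg APCs by 3.42 ± 0.14 on the log2 scale (limma, adjusted p = 3.58e-15) and Rgs2 by 0.43 ± 0.09 (adjusted p = 0.000223). Lower in DPP4_pos APCs were Rgs16, with a log2 difference of -1.78 ± 0.08, Rgs3, with -1.10 ± 0.12, and Rgs10 and Rgs12, each with -0.68 ± 0.07 (largest adjusted p = 5.22e-08). Rgs2, Rgs3 and Rgs10, whose vehicle libraries overlapped, did not overlap between the populations after treatment. Rgs19, which was lower in DPP4_pos APCs under vehicle, had an interval of -0.13 to 0.15 under isoproterenol (adjusted p = 0.872). Rgs20 had an interval of -0.23 to 1.16 (adjusted p = 0.21), and without DPP4_neg isoproterenol replicate 3 its difference was 0.82 (adjusted p = 0.0184). With scaling to total reads, Rgs2 was higher by 0.23 (adjusted p = 0.0261), Rgs19 was lower in DPP4_pos APCs (-0.18, adjusted p = 0.0158), and 34.4% of the genes called were higher in DPP4_pos APCs, against 50.3% here. The comparisons of populations and of treatments use the same libraries.

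Beside Rgs17, the endothelial marker list was also higher in DPP4_pos APCs. Its 10 genes summed to 1364 ± 55.1 normalized counts in DPP4_pos isoproterenol and 1240.4 ± 29.5 in DPP4_pos vehicle libraries, against 271 ± 30.4 in DPP4_neg isoproterenol and 235 ± 16.1 in DPP4_neg vehicle libraries. No marker of the list was at 0 throughout a group, but only 6 of the 10 passed the filter, and Erg reached at most 8.71. Tek and Kdr, which encode receptors, made up most of the sum and moved in opposite directions under isoproterenol. In DPP4_pos APCs Tek had 378 to 454 normalized counts under isoproterenol, against 992 to 1038 under vehicle. Kdr there had 650 to 707 under isoproterenol, against 32.8 to 48.3 under vehicle. Of its 6 tested genes, 5 were higher in DPP4_pos APCs and 1 was not called, under each treatment. Of all tested genes, 31.6% were higher in DPP4_pos APCs under vehicle and 37.4% under isoproterenol. Markers of other lists were higher there too. Of 7 markers of DPP4+ interstitial progenitors, Dpp4 itself among them, 6 were higher and 1 lower in DPP4_pos APCs under vehicle. Under isoproterenol all 7 were higher. Of 7 markers of PDGFRb+ stromal cells, 5 were higher and 2 lower under vehicle. Under isoproterenol 4 of these were higher, 2 lower and 1 not called. Whether endothelial cells hold part of the Rgs17 reads was not tested.

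**Figure D3:**
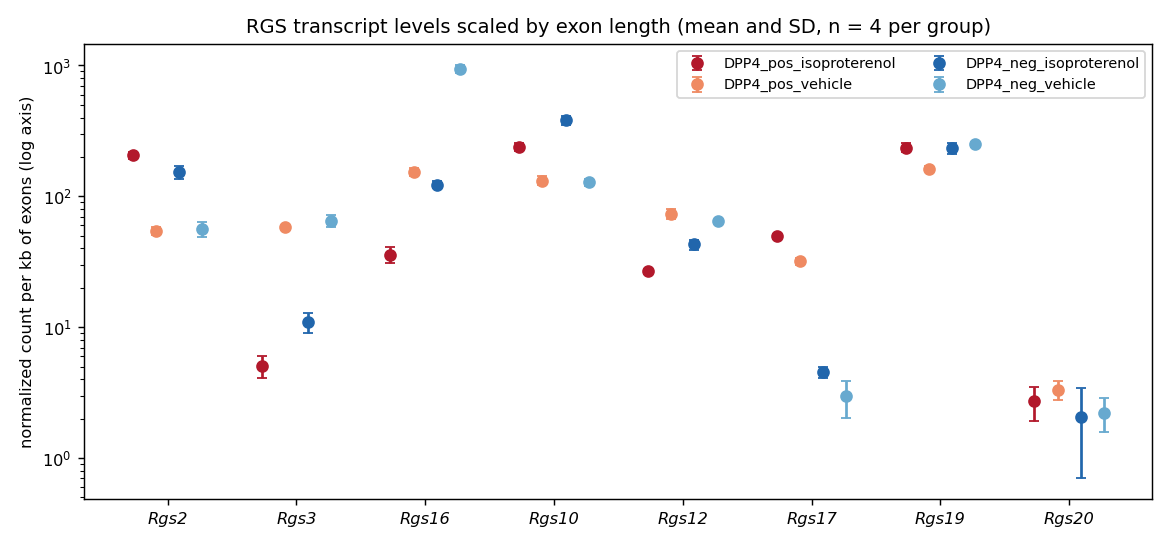
Normalized counts per kb of exons (vertical log axis) of 8 RGS genes in the 4 groups, as mean and SD over 4 libraries. Rgs16 in DPP4_neg vehicle libraries, at 945 per kb, stands above every other gene and group, and Rgs20 lies at 2.06 to 3.34 per kb in each group.

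Scaling by exon length allowed the members to be ordered by level within a group. In DPP4_pos isoproterenol libraries Rgs10, Rgs19 and Rgs2 led, with 239, 235 and 206 normalized counts per kb of exons, and the leading pair did not differ beyond their spread of 16.6 and 18.6 (SD). In DPP4_pos vehicle libraries the order began with Rgs19 at 163, Rgs16 at 154 and Rgs10 at 132 per kb, Rgs19 and Rgs16 again lying within their spread. In DPP4_neg isoproterenol libraries Rgs10 led with 383 per kb, followed by Rgs19 at 234 and Rgs2 at 154. In DPP4_neg vehicle libraries Rgs16 had 945 per kb and made up 62.4% of the summed per-kb level of the 9 genes, against 12.9% in DPP4_neg isoproterenol libraries. Rgs2 took the sixth place per kb under vehicle in both populations and the third place under isoproterenol in both. Exon lengths are unions over GENCODE transcripts, so genes with many transcripts, such as Rgs3 at 10.801 kb, may be understated.

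Another 15 RGS genes or RGS partners were in the table, and 9 of them were tested. In DPP4_pos APCs 5 rose and 3 fell under isoproterenol, and in DPP4_neg APCs 2 rose and 4 fell, where 39.4% of all tested genes rose and 43.3% fell in DPP4_pos APCs and 32.1% rose and 33.6% fell in DPP4_neg APCs. Rgs7bp, which anchors regulators of the R7 subfamily at the membrane, had 761 ± 42.9 normalized counts in DPP4_pos isoproterenol and 28.3 ± 5.81 in DPP4_pos vehicle libraries, a log2 difference of 4.72, and 273 ± 8.60 in DPP4_neg isoproterenol and 22.5 ± 3.90 in DPP4_neg vehicle libraries, a log2 difference of 3.55. Rgs6, an R7 gene, rose by 3.33 in DPP4_pos and 3.57 in DPP4_neg APCs. Rgs4, an R4 gene, fell in DPP4_neg APCs to 163 ± 20.3 under isoproterenol, against 745 ± 31.4 under vehicle (log2 difference -2.19). In DPP4_pos APCs Rgs4 was at 108 ± 9.91 under isoproterenol and 74.1 ± 11.4 under vehicle (0.55, adjusted p = 7.36e-05). The difference of the Rgs4 responses was 2.74 (limma, adjusted p = 1.37e-12), the largest in the list. None of the 8 tested members rose in one population and fell in the other with both changes past the threshold.

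The G protein subunits on which RGS proteins act were counted in the same way. Of 11 tested alpha subunit genes, 4 rose and 4 fell in DPP4_pos APCs, and 4 rose and 5 fell in DPP4_neg APCs, where 82.7% of all tested genes changed in DPP4_pos and 65.7% in DPP4_neg APCs. Gnao1, which encodes the Go subunit, rose in DPP4_neg APCs to 1192 ± 26.0 normalized counts under isoproterenol, against 361 ± 17.3 under vehicle (log2 difference 1.72), and had 105 ± 13.4 under isoproterenol and 109 ± 10.8 under vehicle in DPP4_pos APCs. Gnai1, which encodes a Gi subunit, fell in DPP4_neg APCs to 386 ± 36.1 under isoproterenol, against 1141 ± 107 under vehicle (-1.56), and had 717 ± 32.2 under isoproterenol and 661 ± 28.4 under vehicle in DPP4_pos APCs. The responses differed between DPP4_pos and DPP4_neg APCs by -1.79 for Gnao1 (limma, adjusted p = 2.37e-11) and 1.68 for Gnai1 (adjusted p = 1.55e-12). Of 12 tested beta and gamma subunit genes, 4 rose and 7 fell in DPP4_pos APCs, and 2 rose and 4 fell in DPP4_neg APCs, beside the same shares of all genes. Gng4, a gamma subunit gene, rose by 6.85 in DPP4_pos and 5.56 in DPP4_neg APCs, and Gnb4, a beta subunit gene, fell by 1.67 and 1.75 on the log2 scale in DPP4_pos and DPP4_neg APCs.

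Genes for other brakes on receptor signalling were counted as well. Of 11 tested genes for receptor kinases and arrestins, 6 rose and 5 fell in DPP4_pos APCs, and 5 rose and 4 fell in DPP4_neg APCs, again where 82.7% of all tested genes changed in DPP4_pos and 65.7% in DPP4_neg APCs. Arrdc3, which encodes an arrestin-like protein that binds beta-adrenergic receptors, rose by 2.88 in DPP4_pos and 2.81 in DPP4_neg APCs. Grk3, a receptor kinase gene, fell by 2.59 on the log2 scale in DPP4_pos and by 1.17 in DPP4_neg APCs. Of 17 other regulators (GoLoco proteins, chaperones and scaffolds or exchange factors with an RGS domain), 6 rose and 8 fell in DPP4_pos APCs, and 3 rose and 8 fell in DPP4_neg APCs, read against the same 82.7% and 65.7%. All 11 genes in a list of cyclic AMP targets rose in both populations, Crem by 5.42 in DPP4_pos and 4.62 in DPP4_neg APCs. Of all tested genes, 39.4% rose in DPP4_pos and 32.1% in DPP4_neg APCs. The list was chosen with earlier results of these data known, so it is no independent check of the treatment.

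**Figure D4:**
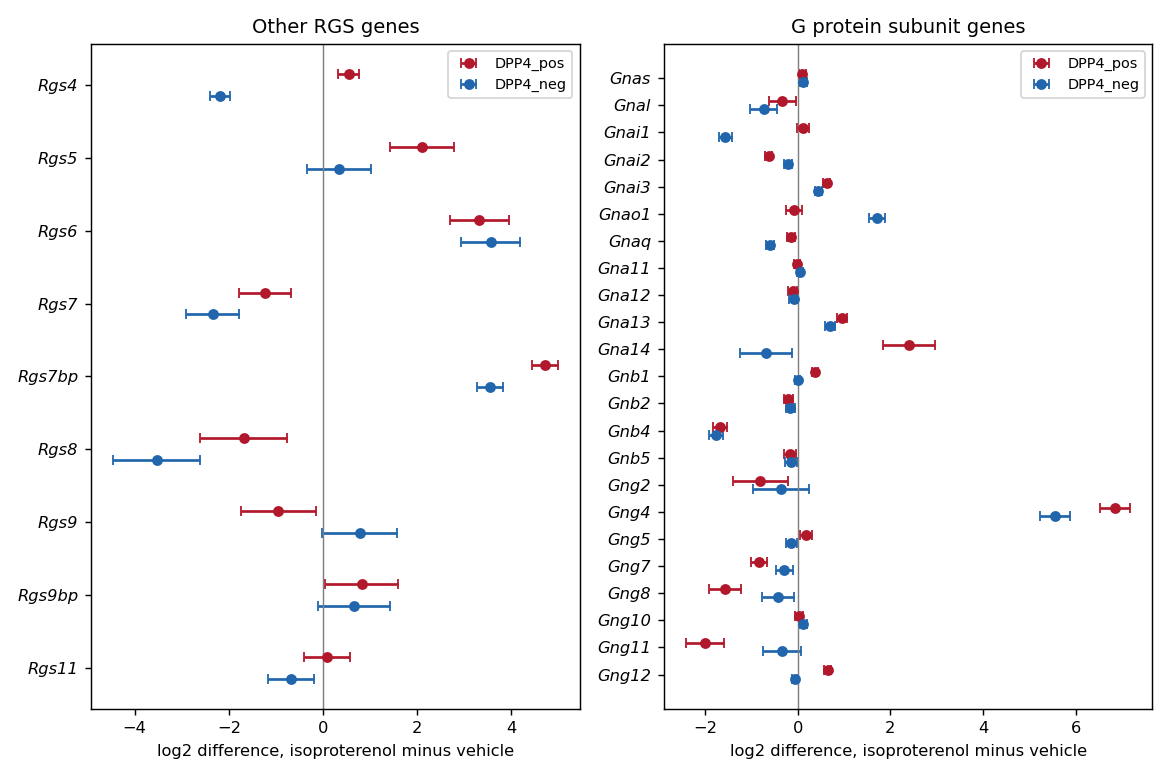
Log2 differences, isoproterenol minus vehicle, with 95% confidence intervals (limma) for the other tested RGS genes and for G protein subunit genes in DPP4_pos and DPP4_neg APCs. Rgs4 lies at 0.55 in DPP4_pos and -2.19 in DPP4_neg APCs, and Gng4 at 6.85 and 5.56 lies farthest to the right.

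For the 3 members with the largest changes, the genes with the most similar pattern were sought among 11088 genes that averaged 50 normalized counts or more. Likeness was the root mean square difference of centred log2 values over the 16 libraries. Nearest to Rgs2 were Gpcpd1, Stx6 and Cebpb, at 0.11, 0.14 and 0.15, where the pattern of Rgs2 itself had a root mean square of 0.86. Nearest to Rgs3 were Coq8a, Hacl1 and Deptor, at 0.21, 0.22 and 0.24, where Rgs3 had 1.59. Rgs16 had more distant neighbours, Pkia, Plin4 and Bdnf, at 0.32, 0.32 and 0.33, where Rgs16 had 1.69. Pkia encodes an inhibitor of the cyclic AMP-dependent kinase, and Deptor an inhibitor of mTOR. The libraries share their treatment and population contrasts, so likeness here is mostly likeness of 4 group means.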

How the data were processed

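RNA of 16 samples was sequenced, each library made from 500 ng of total RNA, per the labels' protocols. Among tools, the submitters' processing notes list DESeq2 1.6.3, featureCounts 1.4.6, HISAT2 2.0.1 and Trim Galore 0.4.1, and as builds mm10 and GRCm38, with no order, settings or annotation. Values as deposited by the authors are a normalized signal, each read count over a size factor, per the file headers and the values themselves: 100.0% of the 280334 values above 0 gave whole reads within 0.001 after division by a step fixed for each library. The library kit does not state whether strand was kept.

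Tests were run with limma 3.58.1 with a mean-variance trend (R 4.3.3) on log2(normalized count + 1) of the 14005 entries with at least 10 normalized counts in at least 4 libraries, in a fit of 4 group means over all 16 libraries, with Benjamini-Hochberg adjustment over all of them. Changes are called at an adjusted p under 0.05, and means are given ± SD (n = 4). Chi-square over degrees of freedom between replicates was 1.62 to 9.39, above counting noise. Alternatives were edgeR 4.0.16 and DESeq2 1.42.0 on the recovered reads, other pseudocounts, filters and scalings, a replicate block and leaving out each library; scaling to total reads was chosen after seeing the data. The fit was tested on simulated data. Entries without a symbol (958), and 26 whose symbol a spreadsheet had turned into a date, were kept under their identifiers. Those that passed the filter were tested, and none is named. Identifiers of 25275 entries matched RefSeq (GRCm38.p6), which gave positions and promoter windows. Windows were found for 7 members. Exon lengths and exonic overlaps came from GENCODE.

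The members and gene lists were chosen with earlier results of these data known. All 9 members are named; of each list, up to 3 called genes with the largest change in each direction and comparison may be named, and the 3 genes most like each of the 3 members with the largest change.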

Additional observations from a re-analysis of the deposited data

Results flagged for a closer look

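In 3 of 36 combinations of a member and a group, 1 library stood apart from the other 3, with a gap above 0.829 of the range of the group; chance flags about 1 in 20. Rgs14 had 3.48 normalized counts in DPP4_pos isoproterenol replicate 2 and 0 in the others. Rgs19 had 591 in DPP4_neg vehicle replicate 1, the next being 547. Rgs20 had 17.4 in DPP4_neg isoproterenol replicate 3, the next being 6.48.

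The isoproterenol response differed between DPP4_pos and DPP4_neg APCs by the interaction term of limma for 6 members. The log2 difference, DPP4_pos minus DPP4_neg, was 0.47 for Rgs2, -0.94 for Rgs3, 0.84 for Rgs16, -0.72 for Rgs10, -0.86 for Rgs12 and 0.63 for Rgs19.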

How the results depend on the processing

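Counts of genes called stayed within 1.5 times in every alternative run: 10253 to 12782 for isoproterenol against vehicle in DPP4_pos APCs, 8381 to 9543 in DPP4_neg APCs, 8189 to 9385 for the difference of responses, and 9502 to 10852 under isoproterenol and 8505 to 10212 under vehicle between DPP4_pos and DPP4_neg APCs. The count test on recovered reads (edgeR) called 11581, 9543 and 8773 genes in the first 3 of these. Values that turned sign all came from differences that had not passed the threshold. The difference of responses of Rgs17 was 0.070 with a pseudocount of 5, 0.030 in edgeR and 0.076 in DESeq2, and -0.18 to 0.12 with each library left out. Rgs20 became 0.14 in DPP4_pos APCs and 0.30 for the difference of responses with quantile normalization, and the second of these -0.26 to 0.26 with each library left out. Under isoproterenol, Rgs19 was -0.022 between DPP4_pos and DPP4_neg APCs with quantile normalization, -0.18 with total-read scaling (adjusted p = 0.0158), -0.046 in edgeR and -0.0062 in DESeq2, and -0.035 to 0.059 with each library left out. Under vehicle, Rgs2 was 0.016 with total-read scaling and -0.13 to 0.020 with each library left out, and Rgs10 -0.0080 to 0.088. With only the groups compared in the fit, Rgs3 (adjusted p = 0.0281) and Rgs20 (adjusted p = 0.0418) passed under vehicle; without DPP4_neg isoproterenol replicate 3, Rgs20 passed under isoproterenol (0.82, adjusted p = 0.0184). The causes were not tested. A filter at 50 left Rgs20 without a value. The replicate numbers share only a number: deviations of same-numbered libraries correlated at -0.23 to 0.13, with 1 of 24 pairs over 0.1. A replicate block called 11612, 9295 and 8854 genes for the 2 treatment comparisons and the difference of responses, 9393 under vehicle and 10451 under isoproterenol, and changed the call of no member. Depth limits Rgs14 and Rgs20, with 18 and 185 reads in all.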
